A study of Mus musculus with 12 samples.

Results

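Dual alpha cells are T cells in which the sequencing of the T cell receptor (TCR) returned 2 alpha chain (TRA) contigs and 1 beta chain (TRB) contig. They were taken from the Islet IGRP– libraries, among barcodes with under 5% mitochondrial UMIs (unique molecular identifiers) and 200 to 3500 detected genes, and were set against single alpha cells, with 1 TRA and 1 TRB contig. There were 713 dual alpha cells, 222 in Round 1 and 491 in Round 2, beside 8475 single alpha cells, 2992 and 5483, out of 26818 barcodes in the 6 cell libraries of the series. The mice were NOD/ShiLtJ animals of 10 to 15 weeks, a strain that develops autoimmune diabetes without treatment, and each round pooled the islets of 10 mice, so that no value here belongs to a single animal. The Islet IGRP– cells were sorted as CD45.1+ CD8+ cells that lacked CD4, B220 and CD11b and did not bind a Kd tetramer loaded with NRP-V7, a mimotope of the islet antigen IGRP; tetramer-binding cells of islets and spleen made the Islet IGRP+ and Spleen IGRP+ libraries. The class of a cell was read from assembled TCR contigs and not from its mRNA counts, but both came from the same droplets.

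A developing T cell rearranges its beta locus first and rarely keeps more than 1 productive beta chain. The alpha locus is rearranged later and on both chromosomes, V genes are joined to J genes over several rounds that move along the J cluster, and allelic exclusion is weak, so mature T cells may carry more than 1 in-frame alpha chain. A barcode with more than 1 alpha chain can also arise when a droplet holds more than 1 cell or picks up free transcripts.

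The Islet IGRP– matrices held 7302 barcodes with 35140260 UMIs in Round 1 and 9877 barcodes with 49009797 UMIs in Round 2, of which 6429 and 8932 passed the limits. The dual alpha sums held 1190605 and 2480305 UMIs, and the single alpha sums 14780983 and 24976000, so that low genes were measured less precisely in dual alpha cells. Both classes carried the CD8 T cell markers at like levels. Cd3d, Cd3e, Cd3g, Cd8a and Cd8b1 together gave 4417 CPM (UMI counts scaled to a common total over all genes) in dual and 4380 in single alpha cells of Round 1, and 4213 and 4163 in Round 2, with Cd3e the most abundant of them and none at 0. Markers of CD4 and regulatory T cells summed to 6.72 and 9.88 CPM over all UMIs in dual and single alpha cells of Round 1, and to 10.1 and 8.85 in Round 2. The Round 1 and Round 2 Islet IGRP– libraries shared 77 barcodes, and 27 of these were dual or single alpha cells in both; none of the 27 had the same TRB in both. With the other 4 cell libraries, the Islet IGRP– libraries shared 13 to 35 barcodes each, 2 to 12 of them dual or single alpha cells on both sides, again with no TRB in common.

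Dual alpha cells made up 6.91% of the dual and single alpha cells of Round 1 (222 of 3214, 95% Clopper-Pearson interval 6.05 to 7.84%) and 8.22% of Round 2 (491 of 5974, 7.53 to 8.94%). These intervals, and those below, cover counting error only. Counted by TRB, 141 of 1707 distinct TRBs of Round 1 (8.26%, 6.998 to 9.67%) and 324 of 3590 of Round 2 (9.03%, 8.11 to 10.0%) had at least 1 dual alpha cell. A clone is here the cells of a library that share a TRB CDR3 nucleotide sequence, whereas the study defined clones by the paired alpha and beta CDR3s. Where UMIs are given by clone, only cells of the class named are counted. The share hardly varied with clone size. Among cells whose TRB was in 1 cell of the library it was 7.38% and 8.46%, among TRBs in 2 to 10 cells 6.89% and 8.81%, and among TRBs in over 10 cells 6.31% and 7.30%. In the tetramer-binding libraries dual alpha cells were fewer per cell. The Islet IGRP+ libraries had 2 of 675 (0.296%, 0.0359 to 1.07%) and 6 of 1197 (0.501%, 0.184 to 1.09%), and the Spleen IGRP+ libraries 24 of 1684 (1.43%, 0.915 to 2.11%) and 23 of 1691 (1.36%, 0.864 to 2.03%). Counted by distinct TRB the Spleen IGRP+ libraries lay near the Islet IGRP– libraries, at 24 of 307 (7.82%, 5.07 to 11.4%) and 18 of 225 (8%, 4.81 to 12.3%). The Islet IGRP+ libraries were still lower, with wide intervals, at 1 of 41 (2.44%, 0.0617 to 12.9%) and 2 of 51 (3.92%, 0.479 to 13.5%). Of libraries 2 against 2, the smallest two-sided exact permutation p is 0.333, so these differences were not tested.

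The share of dual alpha cells was higher in cells with more mRNA UMIs, but showed no such order over TRB UMIs. In Round 1 the share was 5.46% below 3000 UMIs (33 of 604, 3.79 to 7.59%), 6.16% from 3000 to under 5000 UMIs (91 of 1477, 4.99 to 7.51%) and 8.65% from 5000 UMIs (98 of 1133, 7.08 to 10.4%). In Round 2 it was 5.93% (69 of 1163, 4.65 to 7.45%), 7.85% (242 of 3081, 6.93 to 8.86%) and 10.4% (180 of 1730, 9.01 to 11.9%). In Round 2 the intervals of the shallowest and the deepest band did not overlap; in Round 1 they did. By UMIs of the TRB contig, the share in Round 1 was 6.16% at 1 to 4 UMIs, 5.88% at 5 to 9, 9.41% at 10 to 19 and 5.13% from 20 (20 of 390), so that the deepest band was the lowest. In Round 2 it was 8.004%, 7.72%, 8.51% and 8.73%, with overlapping intervals.

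**Figure D1:**
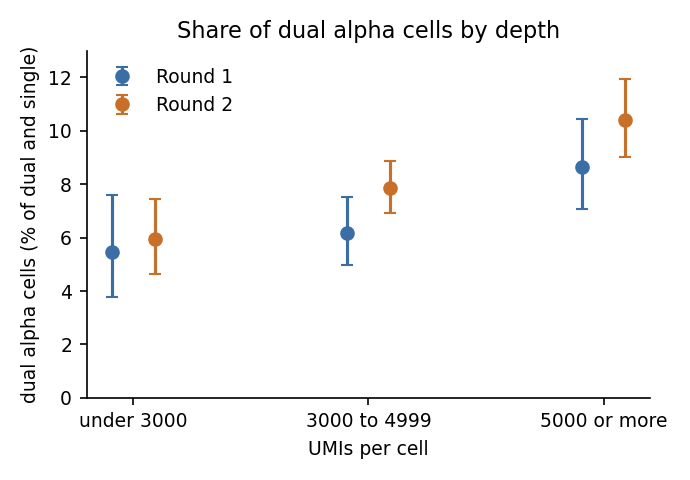
Percent of dual and single alpha cells that were dual (y axis) in 3 bands of UMIs per cell (x axis), for each Islet IGRP– round, where points are shares and bars are 95% Clopper-Pearson intervals. The share goes from 5.46% to 8.65% in Round 1 and from 5.93% to 10.4% in Round 2.

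Dual alpha cells had a median of 4482 UMIs and 1693.5 genes in Round 1 (quartiles of UMIs 3427 and 6728), against 4142 UMIs and 1538.5 genes in single alpha cells (3229 and 5837). In Round 2 the medians were 4406 UMIs and 1715 genes (3391 and 6179) against 3933 UMIs and 1604 genes (3153 and 5250). The ratio of median UMIs was thus 1.08 and 1.12, and the quartile ranges of the classes overlapped widely in both rounds. The median mitochondrial share was 2.82% against 2.81% in Round 1 and 1.84% against 1.79% in Round 2. The upper limit of 3500 genes removed 23 of 248 dual and 143 of 3207 single alpha barcodes of Round 1 (9.27% and 4.46%), and 19 of 511 and 262 of 5775 of Round 2 (3.72% and 4.54%), so the classes differed in what the limit removed in Round 1 but hardly in Round 2.

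Barcodes with 2 TRB contigs, the usual mark of a droplet with more than 1 T cell, were deeper than dual alpha cells. They were 109 of the 4835 barcodes with a TRB contig in Round 1 (2.25%, 1.85 to 2.71%), at a median of 6773 UMIs, and 322 of 7656 in Round 2 (4.21%, 3.77 to 4.68%), at a median of 6566 UMIs. Of these, 19 and 87 also had 2 TRA contigs (17.4% and 27.0%), with medians of 7991 and 7550 UMIs. At the other end, 1512 barcodes of Round 1 and 1360 of Round 2 had 1 TRB contig and no TRA contig, at medians of 3589 and 3427 UMIs, and 1361 and 1037 had no contig at all, at 3269 and 3920. Median UMIs of dual alpha cells therefore lay above those of single alpha cells and below those of 2-TRB barcodes in both rounds; what part droplets with more than 1 cell have in the dual class was not tested.

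Within the contigs, the TRB of dual alpha cells had a median of 9 UMIs in Round 1 and 10 in Round 2, against 8 and 10 in single alpha cells. The alpha chain with more UMIs had a median of 4 UMIs in Round 1 and 5 in Round 2, and the chain with fewer had 3 in both; the only alpha chain of single alpha cells had 3 and 4. The chain with fewer UMIs rested on 1 UMI in 43 of 222 dual alpha cells of Round 1 (19.4%) and 47 of 491 of Round 2 (9.57%). The only alpha chain of single alpha cells did so in 437 of 2992 (14.6%) and 458 of 5483 (8.35%). In the mRNA libraries, Trac, the alpha constant gene, gave 351 CPM over all UMIs in dual and 283 in single alpha cells of Round 1, and 202 and 159 in Round 2, ratios of 1.24 and 1.27. Of the beta constant genes, Trbc1 was also higher in dual alpha cells of both rounds, at 208 against 172 and 196 against 168, and Trbc2 was lower in both, at 296 against 344 and 503 against 566. The class itself is read from recovered alpha transcripts, so these TCR genes are described without a test.

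Dual alpha cells with the same TRB carried the same alpha pair. In Round 1, 20 TRBs were in at least 2 dual alpha cells, and in Round 2, 36 were. In all 101 dual alpha cells of these TRBs in Round 1 (100%, 96.4 to 100%) and all 203 in Round 2 (100%, 98.2 to 100%), the pair of alpha CDR3 nucleotide sequences was the one carried by the other dual alpha cells of that TRB. No TRB had more than 1 pair. The deposited contigs had passed the clonotype and contig filters of the assembler, whose part in this uniformity was not tested. Most pairs were seen once, since 121 of 141 TRBs in Round 1 and 288 of 324 in Round 2 had 1 dual alpha cell. The 3 largest dual clones held 18.02% of the dual alpha cells of Round 1 and 16.3% of Round 2.

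Cells with the TRB of a dual alpha cell but 1 TRA contig mostly carried a chain of the pair. Among TRBs with at least 2 dual alpha cells, Round 1 had 228 cells, of which 101 showed both chains, 117 showed 1 chain and 10 showed none; 116 of the 117 chains were from the pair (99.1%, 95.3 to 99.98%). Round 2 had 354 cells, of which 203 showed both, 139 showed 1 and 12 showed none, and 136 of the 139 chains were from the pair (97.8%, 93.8 to 99.6%). Only 44.3% and 57.3% of the cells of these clones were therefore counted as dual. Cells showing both chains had a median of 4887 UMIs against 4702 in cells showing 1 chain in Round 1, and 4729 against 3640 in Round 2. Over the TRBs of any dual alpha cell, the medians were 4482 against 4904 UMIs in Round 1 and 4406 against 3729 in Round 2, so the rounds went opposite ways. Including TRBs with 1 dual alpha cell, 151 of 158 single alpha cells of Round 1 (95.6%) and 169 of 184 of Round 2 (91.8%) carried a chain of the pair. Part of the single class thus shared its clones with the dual class. Among single alpha cells alone, 213 of 241 TRBs of Round 1 and 366 of 409 of Round 2 that were in at least 2 of them had the same alpha chain in all (88.4% and 89.5%). The other TRBs had more than 1 alpha chain, so a clone counted by TRB can hold more than 1 clone as the study defined it.

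The alpha chains of dual alpha cells were also looked for in cells of other clones. Chains were counted here once for each cell, so a clone of several cells counts several times, also in the intervals. An alpha chain found in a dual alpha cell was also found in a single alpha cell with another TRB for 39 of 444 chains in Round 1 (8.78%, 6.32 to 11.8%) and 67 of 982 in Round 2 (6.82%, 5.33 to 8.58%). For chains of single alpha cells it was 249 of 2992 (8.32%, 7.36 to 9.37%) and 530 of 5483 (9.67%, 8.90 to 10.5%). The chain with fewer UMIs was shared in 12 of 222 and 30 of 491 dual alpha cells (5.41% and 6.11%), and the chain with more UMIs in 27 of 222 and 37 of 491 (12.2% and 7.54%). In neither round was the weaker chain shared more often than the alpha chains of single alpha cells. The part of free transcripts in the dual class was not tested.

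The CDR3 sequences of the 3 dual clones with the most dual alpha cells in each round show what a pair looks like. Each line names the clone, the V and J gene and the chain's nucleotides from the deposited contigs, 5′ to 3′. Capitals mark the bases between the longest start shared with the V gene and the longest end shared with the J gene in GENCODE M21, which is from C57BL/6 mice; NOD alleles may differ, so the capitals can include germline bases. A chain without capitals is accounted for by V and J alone.
Round 1 clone 1, TRAV7-4 TRAJ15: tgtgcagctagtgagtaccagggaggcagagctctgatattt
Round 1 clone 1, TRAV7-3 TRAJ2: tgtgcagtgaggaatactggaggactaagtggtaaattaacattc
Round 1 clone 2, TRAV8D-2 TRAJ28: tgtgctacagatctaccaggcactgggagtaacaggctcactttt
Round 1 clone 2, TRAV7D-4 TRAJ6: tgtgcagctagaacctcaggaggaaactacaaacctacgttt
Round 1 clone 3, TRAV13-2 TRAJ15: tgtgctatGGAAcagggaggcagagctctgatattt
Round 1 clone 3, TRAV5-1 TRAJ26: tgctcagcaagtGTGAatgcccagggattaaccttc
Round 2 clone 1, TRAV7-3 TRAJ27: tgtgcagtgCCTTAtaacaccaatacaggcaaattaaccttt
Round 2 clone 1, TRAV9N-4 TRAJ18: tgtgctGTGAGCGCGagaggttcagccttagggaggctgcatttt
Round 2 clone 2, TRAV5-4 TRAJ40: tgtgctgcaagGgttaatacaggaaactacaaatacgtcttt
Round 2 clone 2, TRAV3-1 TRAJ52: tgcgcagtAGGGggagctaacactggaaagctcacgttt
Round 2 clone 3, TRAV7D-5 TRAJ28: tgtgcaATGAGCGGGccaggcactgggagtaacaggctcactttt
Round 2 clone 3, TRAV13-1 TRAJ24: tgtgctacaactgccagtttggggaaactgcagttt
Clone 1 of Round 1 was in 21 dual alpha cells, with 13 more cells of its TRB showing 1 alpha chain, and clones 2 and 3 were in 10 and 9 (with 2 and 19 more). In Round 2 the clones were in 46, 24 and 10 dual alpha cells, with 19, 38 and 3 more that showed 1 chain. The V genes of these pairs lie on the plus strand of chromosome 14 in GRCm38, from TRAV3-1 at 52580665 to 52581213 to TRAV5-4 at 53704007 to 53704514, and the J genes from TRAJ52 at 54165316 to 54165381 to TRAJ2 at 54217836 to 54217901. The TRAJ numbers of a pair differed by 13, 22, 11, 9, 12 and 4 in the order printed, and 5 of the 12 chains had no base outside the V and J matches.

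The chains of a pair used J genes that lie near each other. TRAJ numbers fall from the V side of the cluster to the constant gene, so a number gives a position. Over the 141 distinct pairs of Round 1 the TRAJ numbers of a pair's chains had Pearson's r of 0.57, and over the 324 pairs of Round 2 0.55; pairs of a round share 1 library, and the values are descriptive. The median distance within a pair was 8 J genes in Round 1 and 8.5 in Round 2, against 14 in both rounds between chains of different pairs. Within 10 J genes lay 61.7% and 60.8% of pairs, against 39.9% and 38.4% of chains from different pairs. Pairs seen in 1 cell gave r of 0.54 in Round 1 (121 pairs) and 0.53 in Round 2 (288 pairs), and pairs seen in at least 2 cells gave 0.73 (20 pairs) and 0.64 (36 pairs). By distance the recurrent pairs were not closer in Round 2, at a median of 10 against 8 for pairs seen in 1 cell, with 58.3% against 61.1% within 10 J genes; in Round 1 the medians were 7.5 and 8. In barcodes with 2 TRA and 2 TRB contigs r was 0.11 over 19 barcodes and 0.093 over 87, with median distances of 12 and 11, against 15 in both rounds between different barcodes. For V genes the assigned positions gave no such relation. Over the same 141 and 324 pairs, the start positions of the TRAV genes in GRCm38 had r of 0.038 and 0.0020. Many V genes have near-identical copies far apart, as TRAV12D-2 at 52915799, TRAV12N-2 at 53226773 and TRAV12-2 at 53616315. The assigned copy, and with it the position, can be wrong, so these r cannot decide whether V positions are related. The chains of a pair had the same V gene in 8 and 15 pairs and the same J gene in 7 and 17.

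**Figure D2:**
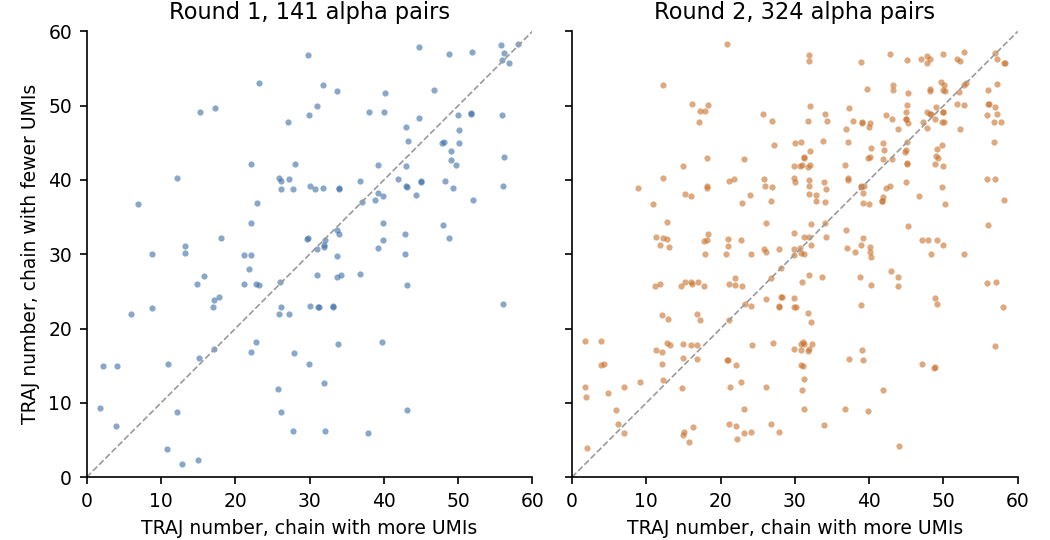
TRAJ number of the alpha chain with more UMIs (x axis) against that of the chain with fewer UMIs (y axis), 1 point per distinct alpha pair, shifted slightly at random so that points do not hide each other; the dashed line marks equal numbers. Points gather along the line in Round 1 (141 pairs) and Round 2 (324 pairs), with 61.7% and 60.8% of pairs within 10 J genes.

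To ask whether the classes used different alpha genes, distinct chains (V gene, J gene and CDR3) rather than cells were counted, so that a large clone counts once. Dual alpha cells had 278 distinct chains in Round 1 and 646 in Round 2, and single alpha cells 1593 and 3285; 53 and 90 chains were in both classes, 19.1% and 13.9% of the dual chains and 3.33% and 2.74% of the single chains. TRAV7D-5 stood out among the V genes. It made up 9 of 278 dual chains in Round 1 (3.24%) and 25 of 646 in Round 2 (3.87%), against 10 of 1593 (0.628%) and 27 of 3285 (0.822%) single chains. It was the only one of 61 TRAV genes tested (1.64%) to pass in edgeR's quasi-likelihood test with round as a block, at a log2 fold change of 2.26 ± 0.40 (SE) and an adjusted p of 2.36e-05, higher in dual cells of both rounds. The test rests on these 9 and 25 dual chains. With cells counted in place of chains edgeR's adjusted p was 0.299, and with TMM normalization 0.197, at log2 fold changes of 2.29 and 2.16. Over the alternatives edgeR's adjusted p ran from 0.00213 to 0.299. The setting with productive contigs is left out, since its fit equals the main one.

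TRAV7D-5 lies on chromosome 14, 52835858 to 52836387 on the plus strand of GRCm38, in the D copy of a V gene array that mice carry in near-identical copies, so the assignment to this copy is uncertain. Its dual chains came from 9 and 25 different TRBs and joined 9 and 20 different J genes. It was the chain with fewer UMIs in 8 of the 17 dual alpha cells that carried it in Round 1 and in 23 of the 46 in Round 2, so it was no more often the weaker chain. The Spleen IGRP+ libraries, held to at most 2000 genes per barcode, had it in 0 of 48 and 0 of 36 dual chains. These counts allow shares of up to 6.25% and 8.33%. Of the spleen single chains, 4 of 268 and 1 of 183 were TRAV7D-5. The Islet IGRP+ libraries, with 2 and 4 dual chains, are too small to compare.

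The other V genes and all J genes gave no call. TRAV16N, the most used V gene in every sum but the dual chains of Round 2, where TRAV6N-7 was, made up 9.71% of dual and 10.8% of single chains in Round 1 and 9.13% and 10.7% in Round 2. TRAV6N-7 made up 7.55% against 6.15% and 9.29% against 5.72% (edgeR adjusted p of 0.443), and TRAV12D-2 3.24% against 5.27% and 5.73% against 5.48%. Of 42 TRAJ genes tested with edgeR, 0 passed (0%), 1 of them at an unadjusted p under 0.05. TRAJ49 made up 4.32% of dual and 5.40% of single chains in Round 1 and 3.72% and 4.90% in Round 2, TRAJ32 4.68% against 4.21% and 5.26% against 4.69%, and TRAJ26 5.04% against 4.52% and 3.72% against 3.53%. The alpha chain TRAV11 with TRAJ18 of invariant NKT cells was in 0 and 1 single alpha cells, and TRAV1 with TRAJ33 of MAIT cells in 3 and 0. Both were in 0 of 222 and 0 of 491 dual alpha cells, which allows shares of up to 1.35% and 0.611%.

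Gene expression was compared over all genes but those of the TCR. With UMI counts summed per round and class and round as a block, edgeR called 46 of 10873 genes at an adjusted p under 0.05 (0.423%), 21 higher in dual alpha cells (0.193%) and 25 lower (0.23%), with 657 at an unadjusted p under 0.05. The median log2 fold change over all genes was -0.0086, which TMM normalization holds near 0. The genes that were higher included granzyme A, which had the smallest p, and pancreatic enzyme transcripts and the chemokine gene Ccl4 were among those that were lower. The calls rest on 2 rounds and 1 residual degree of freedom, with a spread shared over all genes (common biological coefficient of variation 0.031). The prior degrees of freedom were infinite, as in the TRAV and TRAJ fits, so a gene's own spread between rounds was given no weight. Each SE printed with a fold change was computed back from its p. Neither SE nor p therefore measures how far a gene varied between rounds or clones. Without the block, in which the pairing of the classes within a library is ignored, edgeR called 0 genes (80 at an unadjusted p under 0.05), and DESeq2 with the block called 1, Gzma.

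Gzma encodes a serine protease of cytotoxic granules and lies on chromosome 13, 113093825 to 113100981 on the minus strand. It stood at 307 TMM-normalized CPM, the scale of the expression values of named genes from here on, in dual and 156 in single alpha cells of Round 1, and at 419 and 194 in Round 2. Both dual sums lay above both single sums, and the log2 fold change was 1.06 ± 0.06 (SE; edgeR adjusted p of 1.21e-61). A few clones supplied much of it. In Round 1, 20 of 141 dual clones had any Gzma UMI, against 168 of 1598 single clones, and a clone of 6 cells gave 81 of 355 UMIs; in Round 2, 39 of 324 did, against 371 of 3316, and a clone of 5 cells gave 354 of 1079. Without the leading clone of each class and round, Gzma was at 238 against 130 and 296 against 191 CPM over all UMIs. With each clone given the same weight the log2 ratio was 0.47 and 0.54. Among cells of 3000 to 5000 UMIs the log2 fold change was 0.57 (edgeR adjusted p of 0.0503), and among such cells in clones of at most 10 cells, a setting chosen after seeing the data, 0.025 (edgeR adjusted p of 0.998). Gzma passed under 12 of 15 alternatives. Here and below, the 15 leave out the setting with productive contigs, since all contigs were productive and its fit equals the main one.

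Plac8, a small cysteine-rich protein, was at 83.1 CPM in dual and 44.7 in single alpha cells of Round 1 and at 105 and 68.6 in Round 2, with both dual sums above both single sums (log2 fold change 0.70 ± 0.10 SE, edgeR adjusted p of 1.55e-09). Its UMIs were spread more widely, over 34 of 141 and 89 of 324 dual clones, and the largest part from 1 dual clone was 13.5%, in Round 1. Plac8 passed under 10 of 15 alternatives. The log2 fold change was 0.26 among cells whose TRB was in 1 cell of the library and 0.34 among cells of 3000 to 5000 UMIs, neither past the threshold in edgeR, and 2.23 among cells of clones that hold a dual alpha cell, a setting chosen after seeing the data.

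The other 8 genes named as higher had smaller differences, at log2 fold changes of 0.23 to 0.65. Most of these calls were lost under most alternatives. Of 15, Dlgap4, Cd160 and Cd226 passed under 3, Fos and Nfkbia under 4, Dnajc15 under 5, Ly6a under 8 and Gzmb under 9. The log2 fold change stayed above 0 for all of these but Gzmb and Dnajc15. It ran from 0.44 to 0.69 for Dlgap4, 0.28 to 0.67 for Cd226 and 0.18 to 0.40 for Fos. For Ly6a it ran from 0.15 to 0.42, for Nfkbia from 0.058 to 0.53 and for Cd160 from 0.099 to 1.17. Gzmb, a granule protease that induces apoptosis, was at 139 against 129 CPM in Round 1 and 241 against 171 in Round 2. Its direction turned among cells of 3000 to 5000 UMIs, at -0.16. Ly6a, a GPI-anchored surface protein, was at 859 against 572 CPM and at 880 against 822. Cd226, a costimulatory receptor, was at 56.3 against 33.3 and 45.4 against 36.0 CPM, and Cd160, a receptor of cytotoxic lymphocytes, at 35.5 against 34.2 and 42.7 against 24.9 CPM. Thus Gzmb and Cd160 were close between the classes in Round 1, and Ly6a was close in Round 2. Nfkbia, the inhibitor that NF-κB induces, was at 503 against 428 and 508 against 434 CPM, and Fos, an AP-1 subunit, at 244 against 194 and 241 against 204 CPM. Dnajc15, a mitochondrial cochaperone, was at 126 against 81.5 and 98.2 against 80.2 CPM, and turned to -0.041 among cells of 3000 to 5000 UMIs. Dlgap4 was at 33.8 against 22.3 and 29.1 against 18.2 CPM.

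**Figure D3:**
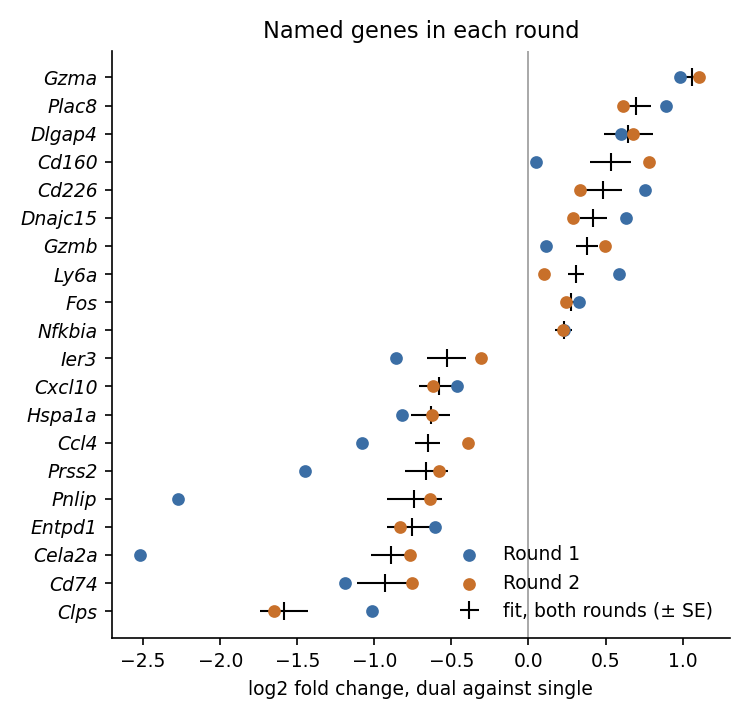
Log2 fold change of dual against single alpha cells (x axis) for the 20 named genes, in Round 1 and Round 2 (points) and in the edgeR fit over both rounds (vertical mark, with bars of 1 SE). The naming rule required the same sign in both rounds. Among the named genes Gzma stands highest, at 1.06.

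Of the 10 genes named as lower, 4 encode digestive enzymes or cofactors of the exocrine pancreas. Clps, the cofactor of pancreatic lipase, was at 6.92 CPM in dual and 14.0 in single alpha cells of Round 1, and at 24.1 and 75.5 in Round 2 (log2 fold change -1.58 ± 0.16 SE, edgeR adjusted p of 2.36e-20). In Round 2, 1 single alpha cell held 1012 of the 1944 Clps UMIs of its class, and without the leading clone of each class Clps was at 20.6 against 37.3 CPM over all UMIs. The elastase gene Cela2a was at 3.46 against 19.8 CPM and 49.7 against 84.8, the lipase gene Pnlip at 1.73 against 8.38 and 24.4 against 38.1, and the trypsinogen gene Prss2 at 6.06 against 16.6 and 41.1 against 61.6. Each was lower in dual alpha cells of both rounds, and each was higher in Round 2 than in Round 1 in both classes. With recurrent pairs set against expanded single clones, none of the 4 passed in edgeR, and the log2 fold change was -0.31 for Clps, -0.19 for Pnlip, -0.57 for Cela2a and -0.62 for Prss2. Among cells of 3000 to 5000 UMIs all 4 passed in edgeR, at -1.48, -1.31, -1.63 and -1.64 in the same order. Over the 15 alternatives Clps and Cela2a passed under 12, Pnlip under 9 and Prss2 under 7. The study set aside a cluster of exocrine cells from its islet data; no cell was removed here for its exocrine UMIs. Of the 10 exocrine markers all were tested, 5 were lower and 0 higher in edgeR, where 0.23% of all genes were lower. Their median fitted log2 fold change was -0.59, against -0.0086 over all genes, and by round it was -1.89 in Round 1, where the 2 markers at 0 in dual alpha cells were ranked lowest, and -0.50 in Round 2. The list summed to 28.6 CPM over all UMIs in dual and 93.8 in single alpha cells of Round 1, and to 282 and 435 in Round 2, with 2 markers at 0 in dual alpha cells of Round 1 and none elsewhere; Ctrb1 was the most abundant but for the Round 1 dual sum, where Clps was. The part of acinar RNA in the droplets was not tested.

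Cd74 and H2-Eb1, genes of MHC class II presentation, were lower as well. Cd74, the invariant chain of MHC class II, was at 17.3 against 39.5 CPM in Round 1 and 13.6 against 22.9 in Round 2 (log2 fold change -0.93 ± 0.18 SE, edgeR adjusted p of 0.000437). A single alpha cell in a clone of 12 cells held 267 of the 551 UMIs of Round 1, and weighting clones equally gave log2 ratios of -0.052 and 0.015. Cd74 passed under 6 of 15 alternatives. Its log2 fold change was -1.92 without the upper gene limit and -2.95 among cells of clones that hold a dual alpha cell, both past the threshold in edgeR. The latter setting was chosen after seeing the data and had only 158 and 184 single alpha cells. It was -1.31 among cells of 3000 to 5000 UMIs and 0.14 among cells whose TRB was in 1 cell, neither past the threshold. H2-Eb1, at 0 and 7 UMIs in dual and 172 and 144 in single alpha cells, had 116 of the 172 in 1 cell. Myeloid markers summed to 21.8 CPM over all UMIs against 62.8 in Round 1 and 31.9 against 38.2 in Round 2, Cd74 being the most abundant, with 3 of 8 at 0 in each dual sum. Of the 8, 5 were tested, 2 were lower (0.23% over all genes) and 1, Tyrobp, was higher (0.193% over all genes), with a median fitted log2 fold change of -1.12. In Round 2 the median was -0.75, and in Round 1 it has no finite value, since 3 of the 5 were at 0 in dual alpha cells. Of Tyrobp, 26 of the 29 UMIs in dual alpha cells were in 1 cell of Round 2, and Round 1 had 0. What myeloid RNA in T cell droplets has to do with these values was not tested.

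Ccl4, a chemokine that effector T cells release, was at 110 CPM in dual and 232 in single alpha cells of Round 1 and at 115 and 152 in Round 2 (log2 fold change -0.65 ± 0.08 SE, edgeR adjusted p of 5.32e-13). Both dual sums lay below both single sums, but among cells whose TRB was in 1 cell of the library the direction turned, at 0.44, not past the threshold in edgeR. With each clone given the same weight the log2 ratio was -0.67 in Round 1 and 0.32 in Round 2. Entpd1, the ectonucleotidase CD39, was at 23.4 against 35.5 and 19.8 against 35.3 CPM. It passed under 5 of 15 alternatives, and its log2 fold change was -0.11 with clones of at most 10 cells and turned to 0.55 with such clones at 3000 to 5000 UMIs. It was -3.14 ± 1.06 (SE) among cells whose TRB was in 1 cell of the library and -1.18 without the largest dual clone of each round. Of these 4 settings only that without the largest dual clone passed in edgeR. With clones weighted equally its log2 ratio was 0.30 in Round 1 and -0.71 in Round 2. Ier3, an immediate early gene, was at 41.5 against 75.5 and 34.9 against 43.1. It passed under 6 of 15 alternatives, and in Round 1 a clone of 232 single alpha cells gave 378 of the 1054 Ier3 UMIs of its class. Cxcl10, a chemokine induced by interferon, was at 27.7 against 38.3 and 38.8 against 59.5 CPM, and the heat shock gene Hspa1a at 5.19 against 9.17 and 59.4 against 91.5. Of 15 alternatives, Ccl4 passed under 9, Hspa1a under 7 and Cxcl10 under 4. The log2 fold change ran from -0.67 to -0.082 for Cxcl10 (-0.58 in the main fit), smallest in size within clones that hold a dual alpha cell. For Hspa1a it ran from -0.88 to -0.22 (-0.63), smallest with clones of at most 10 cells. For Ier3 it ran from -0.84 to -0.083 (-0.53), smallest among cells whose TRB was in 1 cell.

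Across the 46 calls, 41 had the same direction in both rounds. For 8, more than 50% of the UMIs of the higher class in a round came from 1 clone, and for 17 more than 25% did. Giving each clone the same weight kept the direction in both rounds for 29. Ifitm1, Ccl1, Klra5 and Igfbp7, which fell outside the naming rule and are singled out after their values were seen, illustrate this. In Round 1, 81 of the 84 dual Ifitm1 UMIs came from a clone of 6 cells, and Round 2 had 0. All 46 dual Ccl1 UMIs were in 1 cell of Round 2, and Round 1 had 0. The dual Klra5 UMIs, 18 and 8, came from 1 clone in each round, and the dual Igfbp7 UMIs, 14 and 6, from 1 cell in each.

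By function, calls fell in 3 of the gene lists. Of 20 effector genes 2 were higher, Gzma and Gzmb, and 2 lower, Ccl4 and Ccl5, where 0.193% of all genes tested were higher and 0.23% lower. Their median log2 fold change was -0.087, but it changed sign between the libraries, from 0.037 in Round 1 to -0.17 in Round 2. Of 11 coinhibitory and exhaustion genes 1 was higher, Cd160, and 3 were lower, Entpd1, Havcr2 and Eomes, beside the same 0.193% and 0.23% over all genes. Their median was -0.039 (-0.19 in Round 1 and -0.0031 in Round 2). Eomes, a T-box factor of memory and exhausted CD8 cells, was at 98.7 against 134 and 92.0 against 116 CPM, and Havcr2, the receptor TIM-3, at 27.7 against 24.3 and 10.9 against 29.8, opposite ways in the rounds. Of 16 genes of recent activation 1 was higher, Fos, and the median was 0.10 (0.029 in Round 1, with 1 gene at 0 in dual alpha cells ranked lowest, and 0.19 in Round 2). Above 0 in the fit were 14 of these 16 genes, with 9 above 0 in Round 1 and 14 in Round 2, beside 5209 of 10873 over all genes tested. Other lists leaned the other way in the fit, but not always in each round. Above 0 were 9 of 95 cytosolic ribosomal protein genes (7 in Round 1 and 38 in Round 2), 3 of 18 cell cycle genes (3 and 1) and 2 of 9 interferon response genes (3 and 2). Of 10 glycolysis genes 2 were (6 and 1), and of 5 costimulation genes 0 (3 and 1), so that these lists were split or leaned higher in Round 1. Of 13 mitochondrial genes 3 were above 0 in the fit, but 0 in Round 1 and 11 in Round 2.

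No gene passed in the lists for TCR complex and proximal signalling (18 tested, median -0.0061), cell cycle (18, -0.15), naive and bystander cells (9, 0.029), progenitor and stemness (7, 0.10), anergy (6, -0.081), costimulation (5, -0.042), innate-like CD8 cells (12 of 14, 0.024), interferon response (9 of 10, -0.12), glycolysis (10, -0.052), cytosolic ribosomal proteins (95 of 101, -0.048) or mitochondrial genes (13, -0.042), against a median of -0.0086 over all genes. The medians of the rounds had opposite signs for the progenitor, costimulation, innate-like, glycolysis and mitochondrial lists. The 5 CD8 markers gave none, at a median of -0.0090. Rag1, Rag2 and Dntt, the genes of V(D)J recombination, were too low to be tested, with 1 UMI in all, of Dntt in dual alpha cells of Round 1. Few markers of other cells could be tested. B cell markers summed to 72.2 CPM over all UMIs in dual and 47.4 in single alpha cells of Round 1 and to 46.4 and 39.1 in Round 2, almost all of it Ighm (78 of 86 UMIs in the Round 1 dual sum), and 4 of 6 were at 0 in both dual sums. Islet endocrine markers summed to 2.82 to 4.20 in the 4 sums and endothelial and stromal markers to 16.0 to 21.4, nearly all Pecam1, and erythroid markers to 0 to 0.135. Of the NK cell markers, Gzma alone was tested, and Ncr1, Klrb1c and Klra8 were at 0 in both dual sums.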

How the data were processed

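The authors pooled islets or spleens of 10 mice per round, sorted CD8 T cells and made gene expression and TCR libraries. The deposited matrices hold a UMI count per gene and barcode, and the deposited contig tables a UMI count per contig. Barcodes were joined within a library. Counts were summed per round and class, TCR genes were removed, and edgeR 4.0.16 (R 4.3.3; TMM, filterByExpr, quasi-likelihood F test, round as a block) tested dual against single alpha cells, with Benjamini-Hochberg adjustment over all genes and a threshold of 0.05. Pairing was checked by correlating the difference between rounds in dual alpha cells with that in single alpha cells, which gave Pearson's r of 0.67 across 10873 genes (log2 of CPM plus 1; genes are not independent replicates). TRAV and TRAJ genes were tested on distinct chains without TMM. DESeq2 1.42.0 was an alternative. Shares and intervals used Python 3.11.15, numpy 2.4.6 and scipy 1.17.1.

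The genes named are, in each direction, the 10 past the threshold whose log2 fold change was largest in size, provided that the rounds shared its sign and that the class with more averaged 20 CPM or above. Members and lists were chosen with earlier results of these data known. Droplets with 2 TRB contigs were left out of both classes, and no other doublet caller was run. Alternatives changed the block, normalization, low-count filter, contig UMIs, gene limit, depth, clone size and TCR genes. Of these, 3 were chosen after seeing the data.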

Additional observations from a re-analysis of the deposited data

How the results depend on the processing

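The count of 46 genes past the threshold in edgeR was 45 with DESeq2 size factors, 42 without the low-count filter and 32 with clones of at most 10 cells, and moved further under other settings. Productive contigs gave the same 46 by construction, since all contigs were productive. Without round as a block edgeR called 0 (80 at an unadjusted p under 0.05), and DESeq2 with the block called 1 (54 at an unadjusted p under 0.05). The count was 7 with alpha contigs of at least 2 UMIs, 16 without the upper gene limit, 12 with cells of 3000 to 5000 UMIs, 9 with cells thinned to 2000 UMIs, 23 with TRBs in 1 cell, 23 with recurrent pairs against expanded single clones, and 79 with TCR genes kept. Of the settings chosen after seeing the data, clones of at most 10 cells within 3000 to 5000 UMIs gave 16, cells of clones that hold a dual alpha cell gave 181, and leaving out the largest dual clones gave 60. The 1st of these had 69 and 192 dual alpha cells in Rounds 1 and 2, and the 2nd had 158 and 184 single alpha cells. Counts of calls are thus not at like numbers of cells. Over 300 values of the 20 named genes, 138 kept direction and side of the threshold, 154 kept direction only and 8 turned. Dnajc15 was -0.041 in the depth window and -0.040 with small clones in it, and Gzmb was -0.16 and -0.31 there and -0.35 within clones that hold a dual alpha cell. With TRBs in 1 cell Cd74 was 0.14 and Ccl4 0.44, and Entpd1 was 0.55 with small clones in the window. The cause was not tested.

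The 1 TRAV gene fell to 0 in edgeR with cells counted (9 at an unadjusted p under 0.05) and to 0 with TMM (3 at an unadjusted p under 0.05). The ratio of median UMIs moved from 1.10 to 1.13 with alpha contigs of at least 2 UMIs and to 1.135 without the gene limit. Over leaving out each round, the share of dual alpha cells ranged from 6.91% to 8.22%, the depth ratio from 1.08 to 1.12, recurrence was 100% in both, and the TRAJ correlation ranged from 0.55 to 0.57. With 1 round no residual degrees of freedom remain, so gene counts could not be had. Depth limits low genes most, since the smallest sum held 1190605 UMIs.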
